A study of Homo sapiens with 8 samples.

Results

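The response of the human lymphoma line BJAB to APRIL was measured against EDA on 4 of the 8 arrays in the series. The members were chosen by array title and by annotation. Of 138745 rows in the value table, 36176 carried exactly 1 gene symbol, and keeping for each gene the row with the highest mean over all 8 arrays left 33616 genes. All 33616 were tested, with no filter on dim ones. The 4 groups of the series were BJAB with APRIL, BJAB with EDA, HBL-1 with APRIL and HBL-1 with EDA, each at 1 µg/ml for 6 h and each on 2 arrays. APRIL was a recombinant purified protein, EDA was the control ligand, and all cells grew in RPMI medium with FCS. BJAB is an established B-lymphoma line that is usually counted with tumours of germinal-centre type, and HBL-1 stands for the activated B-cell type. HBL-1 served here for the estimate of spread and for the test of a difference between the lines. Each line is 1 established culture, and no array held cells without an added ligand, so either ligand can be the source of any gap between the groups. Whether replicate arrays were separate cultures is not stated, and the p-values therefore measure a spread between arrays that may be technical.

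APRIL, encoded by TNFSF13, is a soluble trimeric cytokine of the tumour necrosis factor family. It binds BCMA (TNFRSF17) and TACI (TNFRSF13B), and it also docks on heparan sulfate chains of proteoglycans such as SDC1. Both receptors recruit TRAF adaptors and can switch on the classical NF-kB pathway through RELA and NFKB1 and the alternative pathway through MAP3K14, NFKB2 and RELB, which supports survival of plasma cells and of some B-cell tumours. EDA, ectodysplasin, belongs to the same family but binds EDAR and EDA2R, receptors known from the development of skin, hair and teeth. The title of the series concerns APRIL, BCMA in the Golgi and the immunogenicity of lymphoma, so genes of antigen presentation, costimulation, secretion and the Golgi were followed beside the receptors.

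No gene separated APRIL from EDA in BJAB after adjustment. Limma, an empirical Bayes linear model, called 0 of 33616 genes (0% of those tested) at an adjusted p under 0.05, and the smallest adjusted p was 0.408. Without adjustment, 1365 genes had p under 0.05 (4.06% of those tested), 689 with a positive and 676 with a negative difference. Differences are given throughout as APRIL minus EDA on the log2 scale, where 1 is 2-fold. They ran from -1.88 to 1.87, with a median of 0.00 over all genes, and 150 genes (0.446%) reached 1 in size, 99 of them positive and 51 negative.

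What the 4 arrays do give is a limit for each gene. The median standard error of a difference was 0.25 and the median half-width of its 95% interval 0.55. The interval lay wholly within 2-fold in both directions for 27935 genes (83.1%). Among the 7432 genes with a BJAB mean of at least 9 this held for 92.4%, and among the 7373 with a mean from 6 to under 9 for 75.5%. It held for 82.4% of the 18811 genes with a mean under 6. For such dim genes the interval limits the measured signal and may not limit the transcript. Arrays give no read depth, so their number sets this precision. Across genes the APRIL arrays correlated at 0.9925 with each other, the EDA arrays at 0.993, and arrays of different ligands at 0.9923 to 0.9931.

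**Figure D1:**
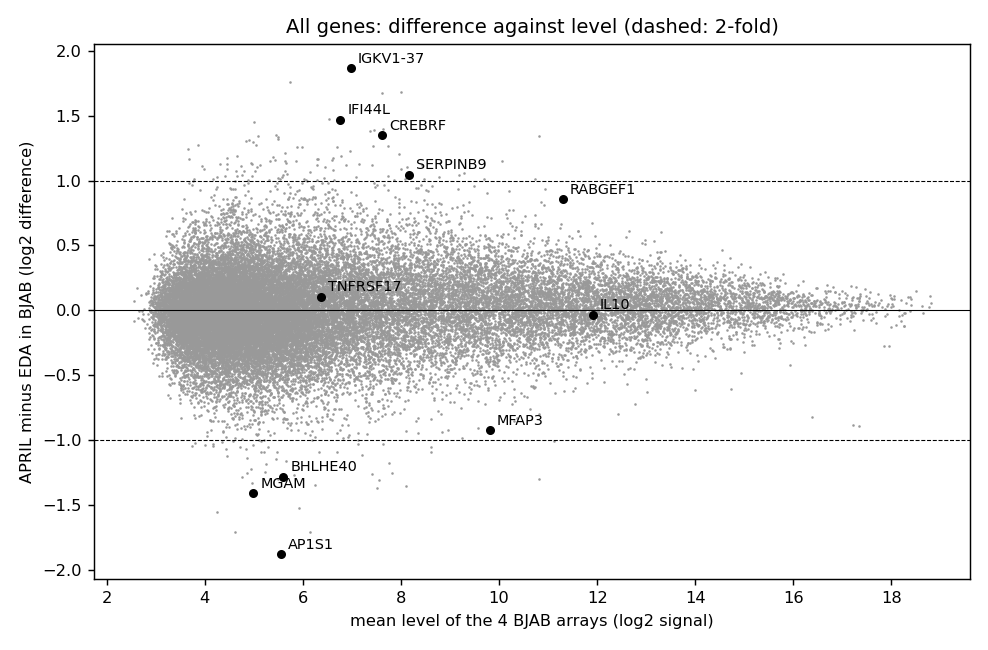
APRIL minus EDA in BJAB (log2 difference, vertical axis) against the mean of the 4 BJAB arrays (log2 signal, horizontal axis) for 33616 genes, 1 point each, with dashed lines at 2-fold. The cloud is centred on 0 and is narrowest among the brightest genes. The 150 genes at or beyond the dashed lines lie between -1.88 and 1.87.

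The arrays were checked against markers of the labelled cell type. All 23 measured B-cell identity genes had BJAB means of at least 6. CD79A, part of the B-cell receptor, was at 15.5 and 15.5 with APRIL, against 15.4 and 15.5 with EDA. The transcription factor BCL6 was at 16.31 and 16.29 with APRIL, against 16.29 and 16.23 with EDA, and S1PR2, a receptor that confines B cells to germinal centres, was at 15.8 and 15.9 under either ligand. Of the germinal-centre-type markers, 19 of 22 had means of at least 6, as had 18 of 21 activated B-cell-type markers, so this count does not tell the types apart. Means of at least 6 were also found for 5 of 18 T-cell and NK-cell markers, 2 of 16 myeloid markers and 6 of 13 epithelial and fibroblast markers. CD3G was at 11.6 and 11.7 with APRIL, against 11.2 and 11.2 with EDA, while CD8A was at 4.3 and 4.2 with APRIL, against 4.1 and 4.1 with EDA. DCN, a fibroblast proteoglycan, was at 12.7 and 12.5 with APRIL, against 12.7 and 12.4 with EDA. The medians of those 3 lists were 0.13 (11 of 18 positive), -0.05 (7 of 16 positive) and -0.16 (5 of 13 positive), with 0 members past the test. In bulk RNA, fewer cells of a type and less RNA per cell cannot be told apart.

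The APRIL receptors showed no separation between ligands in BJAB. The signal of TACI was low, with a BJAB mean of 5.29, and BCMA had a mean of 6.36. TNFRSF17, the receptor BCMA, was at 6.52 and 6.31 with APRIL, against 6.57 and 6.05 with EDA. The background control probe sets had medians of 3.57 to 3.65 on the BJAB arrays. The difference was 0.10 with a 95% interval from -0.61 to 0.82, which lies within 2-fold in both directions. TNFRSF13B, the receptor TACI, was at 6.33 and 4.79 with APRIL, against 5.37 and 4.67 with EDA. The APRIL replicates of TACI lay further apart than the means of the ligands, whose difference was 0.54 (interval -0.46 to 1.54). Under EDA the levels in BJAB minus those in HBL-1 were -5.02 for TNFRSF17 and -5.13 for TNFRSF13B on the log2 scale.

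TNFSF13, the APRIL gene itself, was at 7.02 and 6.89 with APRIL, against 6.79 and 7.10 with EDA, a difference of 0.01 (interval -0.51 to 0.54). TNFSF13B encodes BAFF, the related ligand that shares the receptor TACI. It was at 5.39 and 5.83 with APRIL, against 6.00 and 6.53 with EDA. Its groups did not overlap, with a difference of -0.66 (interval -1.24 to -0.08, adjusted p = 1 in limma). A second transcript cluster of this gene gave -0.61. Both APRIL arrays lay below both EDA arrays in 17% of all genes, and both lay above in 17.3%, so this pattern alone is common in these data.

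SDC1, the syndecan of plasma cells, was at 3.54 and 3.62 with APRIL, against 3.69 and 4.02 with EDA, which is at the level of the background probe sets. SDC2, SDC3 and SDC4 had differences of -0.36, -0.09 and -0.31 with overlapping groups. Of the 31 measured genes for heparan sulfate proteoglycans and their synthesis 14 had a positive difference, and the median was -0.01. EXTL2, a glycosyltransferase of the sugar chain, was at 7.5 and 7.5 with APRIL, against 6.9 and 6.5 with EDA (0.75, interval -0.03 to 1.53). EXT2, a subunit of the chain polymerase, was at 11.1 and 10.9 with APRIL, against 11.7 and 11.2 with EDA (-0.46, interval -1.04 to 0.12). These enzymes of 1 pathway had opposite signs, and neither passed the test.

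The receptors of the control ligand were measured at low signal. EDAR was at 4.69 and 4.50 with APRIL, against 4.49 and 4.56 with EDA (0.07, interval -0.38 to 0.53). EDA2R was at 4.54 and 4.36 with APRIL, against 4.15 and 4.20 with EDA (0.27, interval -0.39 to 0.93). The groups of EDA2R did not overlap, and those of EDAR did. EDARADD, the adaptor of EDAR, was at 5.09 and 4.07 with APRIL, against 4.23 and 4.14 with EDA, so its difference of 0.40 came from a single APRIL array.

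Downstream of the receptors, 18 TRAF adaptors and receptor-proximal kinases were measured, and 0 passed the test. Their median was -0.06, with 6 positive and 12 negative. BIRC2, the ubiquitin ligase that joins TRAF2 and TRAF3 in restraining MAP3K14, was at 5.70 and 5.78 with APRIL, against 5.09 and 5.12 with EDA. Both APRIL arrays of BIRC2 were above both EDA arrays by more than the replicates differed (0.64, interval 0.18 to 1.10, adjusted p = 1). TANK, an adaptor that binds TRAF proteins, was at 10.88 and 10.92 with APRIL, against 10.30 and 10.44 with EDA (0.54). Its partner kinase TBK1 was at 12.03 and 12.08 with APRIL, against 11.37 and 11.81 with EDA (0.47). TRAF3, the adaptor whose loss frees the alternative pathway, was at 11.65 and 11.53 with APRIL, against 11.20 and 11.40 with EDA (0.29). MAP3K14, the kinase NIK, differed by 0.14 with overlapping groups (interval -0.43 to 0.70). BIRC3, a close relative of BIRC2, had a negative value of -0.29.

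The NF-kB subunits and their inhibitors did not separate the ligands either. REL, the subunit typical of B cells, was at 12.69 and 12.90 with APRIL, against 12.78 and 12.80 with EDA, a difference of 0.00 (interval -0.46 to 0.46). RELB was at 10.42 and 10.23 with APRIL, against 10.23 and 10.46 with EDA (-0.03, interval -0.50 to 0.44). NFKB2 was at 9.24 and 9.22 with APRIL, against 9.35 and 9.23 with EDA (-0.06, interval -0.52 to 0.40). All 3 genes had arrays that overlapped and intervals well within 2-fold. The inhibitor NFKBIA differed by 0.10, and the atypical inhibitors NFKBIZ and NFKBIB by 0.31 and 0.33 without overlap between groups. TNFAIP3, the deubiquitinase A20, was at 9.38 and 8.34 with APRIL, against 8.94 and 9.29 with EDA, so the APRIL arrays bracketed the EDA arrays. Over the 15 measured members 6 were positive and the median was -0.03.

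**Figure D2:**
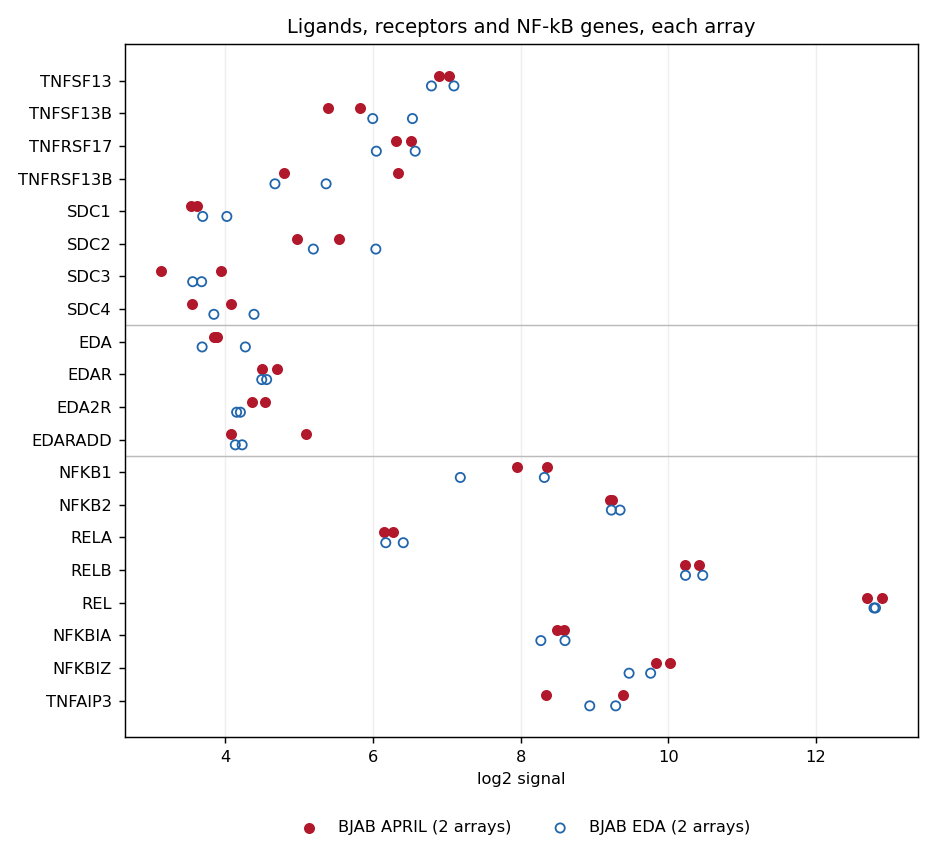
Log2 signal (horizontal axis) of ligands, receptors and NF-kB genes on each BJAB array, filled points for APRIL and open points for EDA, 2 arrays each. The filled and open points of a gene interleave in most rows; TNFSF13B, SDC1, EDA2R and NFKBIZ are rows where they do not.

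Of 31 NF-kB target genes 15 had a positive difference, the median was -0.01, and 0 passed the test. The members with the smallest p-values were genes of lymphoid homing and survival. CCR7, the chemokine receptor that guides lymphocytes to lymph nodes, was at 10.43 and 10.32 with APRIL, against 9.78 and 9.79 with EDA. The replicates of CCR7 lay close together under both ligands, and the difference was 0.59 (interval 0.13 to 1.05, adjusted p = 1), or 1.51-fold. LTB, lymphotoxin beta, was at 11.49 and 11.06 with APRIL, against 10.81 and 10.65 with EDA (0.54). BCL2A1, a survival gene of the BCL2 family, was at 12.18 and 12.27 with APRIL, against 12.01 and 11.47 with EDA (0.48). Commonly used readouts of the pathway gave 0.10 for NFKBIA (interval -0.40 to 0.60), -0.02 for CD83 (interval -0.73 to 0.69), -0.01 for GADD45B (interval -0.48 to 0.45) and 0.17 for ICAM1 (interval -0.32 to 0.65). Of 30 immediate early and MAPK feedback genes 15 were positive, with a median of 0.00. NR4A1, an orphan nuclear receptor induced by antigen receptor signals, was at 8.10 and 7.58 with APRIL, against 7.22 and 7.10 with EDA (0.68, interval -0.05 to 1.41).

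Genes named with the immunogenicity of lymphoma gave the following values. IL10, an immunosuppressive cytokine, was at 11.66 and 12.12 with APRIL, against 12.16 and 11.68 with EDA. The arrays of IL10 overlapped fully, with a difference of -0.03 (interval -0.58 to 0.51). CD274, the gene of the T-cell inhibitory ligand PD-L1, was at 6.80 and 5.87 with APRIL, against 6.63 and 5.73 with EDA (0.15, interval -0.64 to 0.94). CIITA, the coactivator that switches on MHC class II genes, was at 13.64 and 13.49 with APRIL, against 13.54 and 13.35 with EDA (0.13, interval -0.37 to 0.62). STAT3, the main transcription factor downstream of the IL-10 receptor, was at 12.82 and 12.76 with APRIL, against 12.75 and 12.76 with EDA (0.04). Its target SOCS3 differed by 0.06, and the 19 genes of this pathway had a median of 0.02, with 12 positive. Its members with the smallest p-values were PIM2 (0.29), IL10RA (-0.38) and SOCS1 (-0.35). Of 23 immunoregulatory B-cell genes 8 were positive, with a median of -0.09. Here the smallest p-values were those of IL12A (-0.33), IDO1 (-0.33) and ENTPD1 (0.35).

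Among 29 costimulatory and checkpoint genes 14 were positive and the median was -0.02, with 0 past the test. The largest values were those of ligands of the tumour necrosis factor family. TNFSF4, the ligand of the T-cell receptor OX40, was at 5.80 and 6.09 with APRIL, against 5.05 and 4.98 with EDA. TNFSF8, the ligand of CD30, was at 8.35 and 7.65 with APRIL, against 6.90 and 7.17 with EDA. Neither pair of groups overlapped, and the differences were 0.93 (interval 0.37 to 1.50) and 0.96 (interval 0.25 to 1.67), both with an adjusted p of 1. BTN2A2, a butyrophilin that dampens T cells, was at 10.08 and 10.04 with APRIL, against 9.58 and 9.55 with EDA (0.50). CD80, CD86 and CD40 gave -0.26, 0.10 and 0.26, and CD70, TNFSF9 and ICOSLG gave 0.17, -0.04 and -0.14. FCGR2B, the inhibitory Fc receptor of B cells, was at 10.29 and 10.10 with APRIL, against 9.30 and 9.07 with EDA (1.01, interval 0.39 to 1.64, adjusted p = 1), a 2.02-fold value.

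Genes of MHC class I presentation had small and mostly positive values. Of 20 measured, 18 were positive, with a median of 0.08, against 50.3% positive over all genes and 59.8% among genes with a BJAB mean of at least 9. TAP1, which pumps peptides into the endoplasmic reticulum, was at 11.3 and 11.0 with APRIL, against 10.7 and 10.8 with EDA (0.38, interval -0.11 to 0.87). Its partner TAP2 gave 0.28, B2M 0.12 and HLA-B 0.01. All 20 intervals lay within 2-fold, and 0 members passed the test. The list's median came from 1 array more than from the other: the median deviation from the EDA mean was 0.17 on APRIL replicate 1 and 0.02 on APRIL replicate 2. In MHC class II presentation 12 of 20 genes were positive, with a median of 0.03. HLA-DQB1 was at 10.3 and 10.3 with APRIL, against 9.9 and 9.7 with EDA (0.42), while HLA-DRA, HLA-DPA1 and CD74 gave 0.04, 0.00 and -0.04.

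Interferon-response genes had the highest median of the 35 lists, at 0.22, with 23 of 29 members positive and 0 past the test. Type I interferons switch on antiviral genes, many of which carry the interferon-stimulated response element in their promoters. IFI44L, an antiviral response gene, was at 7.50 and 7.50 with APRIL, against 5.53 and 6.52 with EDA. The EDA replicates of IFI44L lay apart while the APRIL replicates coincided, and the difference was 1.47 (interval 0.80 to 2.15, adjusted p = 0.901), or 2.77-fold. RSAD2, which encodes the antiviral enzyme viperin, was at 7.28 and 7.78 with APRIL, against 6.51 and 6.76 with EDA (0.89, interval 0.27 to 1.51). A second transcript cluster of RSAD2 gave -0.04, so the 2 measures did not match. IFIT5, an RNA-binding member of the IFIT family, went the other way, at 4.38 and 3.77 with APRIL, against 4.84 and 5.32 with EDA (-1.01, interval -1.65 to -0.37). These 3 had the smallest p-values in the list, and their groups did not overlap.

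Other members had smaller differences. ISG15, a ubiquitin-like antiviral protein, was at 10.62 and 10.41 with APRIL, against 10.33 and 9.73 with EDA (0.49, interval -0.07 to 1.04). RIGI, a sensor of viral RNA, was at 8.99 and 8.46 with APRIL, against 8.22 and 8.12 with EDA (0.55). MX1, an antiviral GTPase, was at 9.85 and 7.91 with APRIL, against 8.30 and 8.01 with EDA, so its value of 0.72 came from APRIL replicate 1 alone. IRF7, IFI44 and IFIT1 gave 0.00, 0.05 and -0.08. By array, the list's median deviation from the EDA mean was 0.37 for APRIL replicate 1 and 0.12 for APRIL replicate 2, and the EDA arrays differed by a median of 0.09. In HBL-1 the list's median was 0.14, beside 0.10 over all genes. Without HBL-1 APRIL replicate 2, an array that stood apart from the others, these were -0.05 and 0.02.

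**Figure D3:**
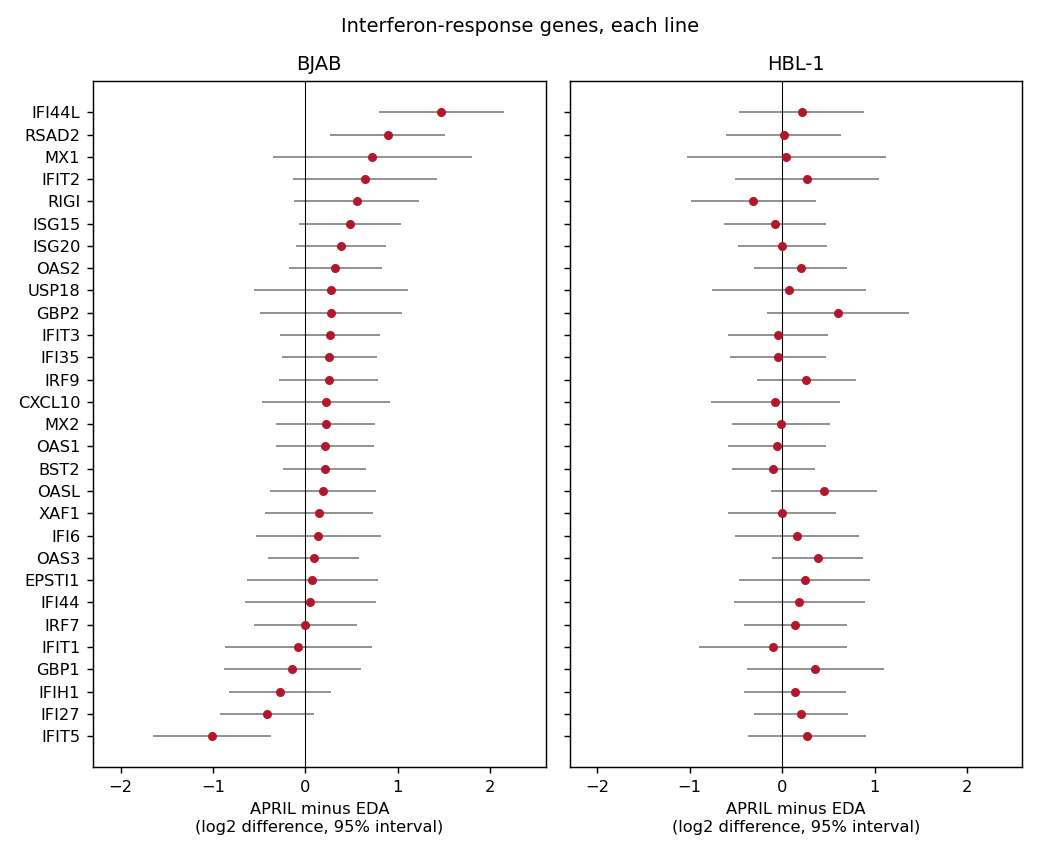
APRIL minus EDA (log2 difference, horizontal axis) with its 95% interval for the 29 interferon-response genes in BJAB (left) and HBL-1 (right), 2 arrays per group. In BJAB 23 points lie right of 0, from IFIT5 at -1.01 to IFI44L at 1.47.

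The promoters of these 3 members are shown because they gave the largest values of the list that separated the ligands. Each is a 300-base window from 250 bases before the transcription start to 50 after it, on the plus strand of RefSeq's GRCh38.p14. The capitals mark matches to GAAANNGAAA or its reverse complement TTTCNNTTTC, the core of the interferon-stimulated response element, where N is any base.
IFI44L, chr1:78620198-78620497: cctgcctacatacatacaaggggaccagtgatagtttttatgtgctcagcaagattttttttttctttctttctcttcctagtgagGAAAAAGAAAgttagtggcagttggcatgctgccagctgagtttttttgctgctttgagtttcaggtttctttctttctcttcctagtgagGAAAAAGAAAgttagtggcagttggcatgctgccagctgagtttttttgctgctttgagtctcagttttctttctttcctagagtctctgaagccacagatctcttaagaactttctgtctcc
RSAD2, chr2:6877527-6877826: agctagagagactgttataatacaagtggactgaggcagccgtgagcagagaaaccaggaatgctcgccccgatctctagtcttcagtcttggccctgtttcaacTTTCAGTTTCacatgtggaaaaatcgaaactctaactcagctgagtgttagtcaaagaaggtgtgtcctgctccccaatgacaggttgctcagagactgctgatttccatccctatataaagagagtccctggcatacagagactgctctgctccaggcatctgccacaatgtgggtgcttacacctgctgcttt
IFIT5, chr10:89414318-89414617: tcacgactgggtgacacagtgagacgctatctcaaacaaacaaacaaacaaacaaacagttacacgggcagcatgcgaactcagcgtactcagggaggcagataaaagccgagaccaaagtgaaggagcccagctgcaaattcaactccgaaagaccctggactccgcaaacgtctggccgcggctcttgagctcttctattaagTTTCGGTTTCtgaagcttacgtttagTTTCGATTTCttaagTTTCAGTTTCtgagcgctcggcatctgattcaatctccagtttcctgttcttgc
IFI44L held 2 forward matches, 164 and 73 bases before the start, and RSAD2 held 1 reverse match, 145 bases before it. A window at another RefSeq start of RSAD2, chr2:6865635-6865934, held no match. IFIT5 held 3 reverse matches, 45, 19 and 4 bases before the start. The motif was present in 21 of 29 promoter windows of the list (72.4%), against 1255 of all 35116 promoters of that length (3.57%). IFI44L and IFIT5 both carried it while their differences had opposite signs. A match is a description of the letters in this window and does not show binding.

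The list medians as a whole lay close to 0. Over 35 lists they ran from -0.18 to 0.22, and 29 lay within 0.1 of 0. The lowest was that of the 8 APRIL and BAFF ligands and receptors, at -0.18 with 3 positive. Beside it stood the unfolded protein response, at -0.17 with 8 of 19 positive. HSPA5, the chaperone BiP of the endoplasmic reticulum, was at 15.6 and 15.5 with APRIL, against 15.9 and 15.8 with EDA (-0.29, interval -0.75 to 0.17). The transcript cluster labelled HSP90B1, the symbol of the chaperone GRP94, gave -0.50 without overlap between groups. It was not matched to the reference gene list, and was at 7.2 and 6.8 with APRIL, against 7.8 and 7.3 with EDA. DNAJC3, a co-chaperone of BiP, gave -0.40 without overlap between groups, and the transcription factor XBP1 gave 0.11. Of 16 heat shock genes 3 were positive, with a median of -0.10, and DNAJB4 was at 9.2 and 8.7 with APRIL, against 9.8 and 9.4 with EDA (-0.64, interval -1.20 to -0.08). All of these values were within the range that the test does not call.

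**Figure D4:**
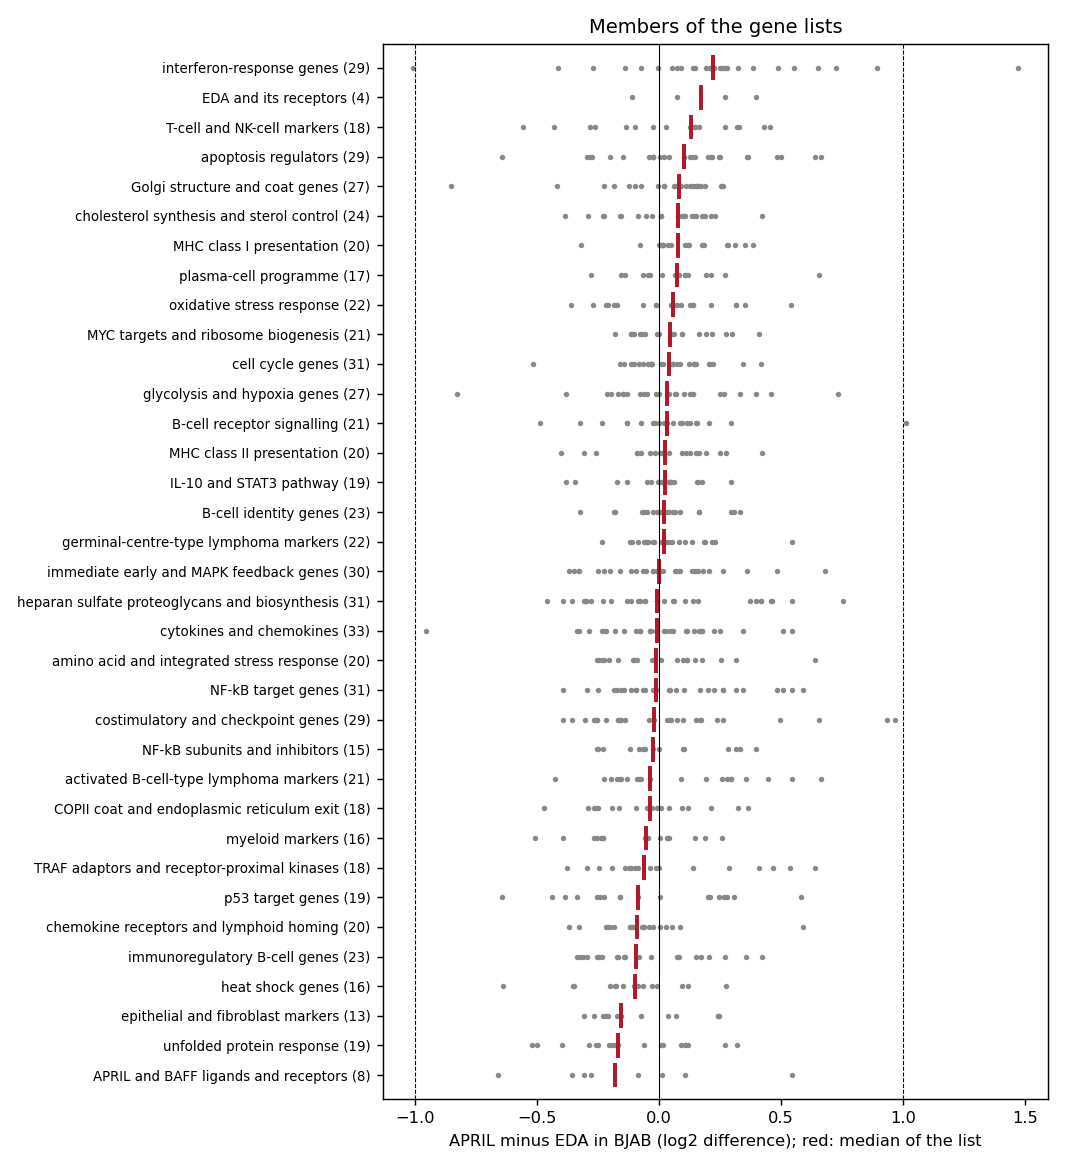
APRIL minus EDA in BJAB (log2 difference, horizontal axis) of each measured member of 35 gene lists, 1 grey point a gene, with the number measured in brackets and the median of the list as a red bar. The medians run from -0.18 to 0.22, and the members of most lists lie on both sides of 0.

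The secretory route was followed because the title places BCMA in the Golgi. Of 27 Golgi structure and coat genes 19 were positive, with a median of 0.08, and of 18 genes of the COPII coat and the exit from the endoplasmic reticulum 7 were positive, with a median of -0.04. MAN1A1, a mannosidase that trims N-glycans in the Golgi, was at 7.52 and 6.58 with APRIL, against 7.93 and 7.88 with EDA (-0.85, interval -1.51 to -0.20, adjusted p = 1). GOLGA4, a golgin of the trans-Golgi, was at 8.56 and 8.40 with APRIL, against 8.99 and 8.80 with EDA (-0.42). SEC16A, a scaffold of the exit sites, was at 7.71 and 6.93 with APRIL, against 7.86 and 7.72 with EDA (-0.47), while MIA3, a cargo receptor at the same sites, was at 12.98 and 12.90 with APRIL, against 12.67 and 12.48 with EDA (0.36). Of 17 plasma-cell genes 11 were positive, with a median of 0.07. JCHAIN, the joining chain of secreted antibodies, gave -0.04, XBP1 0.11 and the plasma-cell surface protein SLAMF7 0.65 (interval -0.03 to 1.34).

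Survival and growth genes included members whose groups did not overlap. Among the 29 apoptosis regulators, 8 such members had higher and 3 had lower signal with APRIL. Among the 31 cell cycle genes these numbers were 5 and 3. Over all genes 34.3% had groups that did not overlap, so separation alone does not set these members apart. Of 29 apoptosis regulators 19 were positive and the median was 0.10. BCL2, the survival factor, was at 5.17 and 5.68 with APRIL, against 4.83 and 4.68 with EDA (0.66, interval 0.13 to 1.20). TNFRSF10B, a death receptor for TRAIL, was at 7.08 and 6.84 with APRIL, against 7.80 and 7.41 with EDA (-0.65, interval -1.21 to -0.08). BCL2L11, MCL1 and BCL2L1 gave -0.03, -0.28 and 0.22. Of 31 cell cycle genes 18 were positive, with a median of 0.04. CCND3, the cyclin most used by germinal-centre B cells, was at 11.6 and 11.6 with APRIL, against 12.0 and 12.3 with EDA (-0.52, interval -0.99 to -0.04), and its second transcript cluster gave -0.12. The proliferation marker MKI67 was at 14.9 on each of the 4 arrays, and MYC differed by -0.01. MDM2, which targets p53 for degradation, was at 10.11 and 9.89 with APRIL, against 9.60 and 9.23 with EDA (0.58, interval 0.09 to 1.07), among 19 p53 targets of which 9 were positive. IL15, a cytokine for T and NK cells, was at 4.72 and 4.40 with APRIL, against 5.53 and 5.51 with EDA (-0.96, interval -1.53 to -0.39). None of these genes passed the limma test, each with an adjusted p of 1.

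The protein-coding genes with the smallest p-values had groups that did not overlap, yet did not pass adjustment. CREBRF, a regulator of the stress response factor CREB3, was at 8.21 and 8.37 with APRIL, against 6.91 and 6.96 with EDA. The difference of CREBRF was 1.35 (interval 0.89 to 1.82, adjusted p = 0.794), or 2.55-fold. MGAM, an intestinal enzyme that digests starch, was at 4.23 and 4.33 with APRIL, against 5.76 and 5.61 with EDA (-1.41, interval -1.87 to -0.94, adjusted p = 0.794). A second transcript cluster of MGAM gave 0.12, so the 2 measures of this gene did not match. SERPINB9, which protects cells from granzyme B, was at 8.80 and 8.59 with APRIL, against 7.57 and 7.72 with EDA (1.05, interval 0.55 to 1.54, adjusted p = 0.901). OTUD7B, a deubiquitinase that stabilises TRAF3, was at 6.31 and 5.95 with APRIL, against 5.06 and 4.50 with EDA (1.35, interval 0.73 to 1.96). BHLHE40, a transcriptional repressor of activated lymphocytes, was at 4.94 and 4.96 with APRIL, against 5.96 and 6.51 with EDA (-1.28, interval -1.89 to -0.67). MAP2K3, an activator of p38 kinases, was at 5.50 and 5.85 with APRIL, against 6.61 and 6.74 with EDA (interval -1.47 to -0.53).

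The rest of that group was of mixed function. With positive values stood AFG1L, a mitochondrial ATPase (1.20), PPP4R4, a regulatory subunit of protein phosphatase 4 (1.48), PLEKHG7 (1.45), ZCCHC4, an RNA methyltransferase of the ribosome (0.90), TPST1, which sulfates tyrosines in the Golgi (0.86), and RABGEF1, an exchange factor for the endosomal protein RAB5 (0.86). RABGEF1 was at 11.62 and 11.84 with APRIL, against 10.98 and 10.77 with EDA. With negative values stood CACNA1A, a calcium channel of neurons (-1.27), SLC7A4 (-1.03), ACSBG2 (-1.07), MFAP3 (-0.93), the olfactory receptor OR2G2 (-1.04) and the muscle proteins NEB (-0.95) and TTN (-0.89). MFAP3 was at 9.36 and 9.32 with APRIL, against 10.26 and 10.27 with EDA. Second transcript clusters gave 0.09 for MFAP3 and -0.38 for CACNA1A. These 20 genes were chosen for their p-values and for groups that do not overlap, so the separation itself is a description. Among all 33616 genes, 11517 (34.3%) had such groups.

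**Figure D5:**
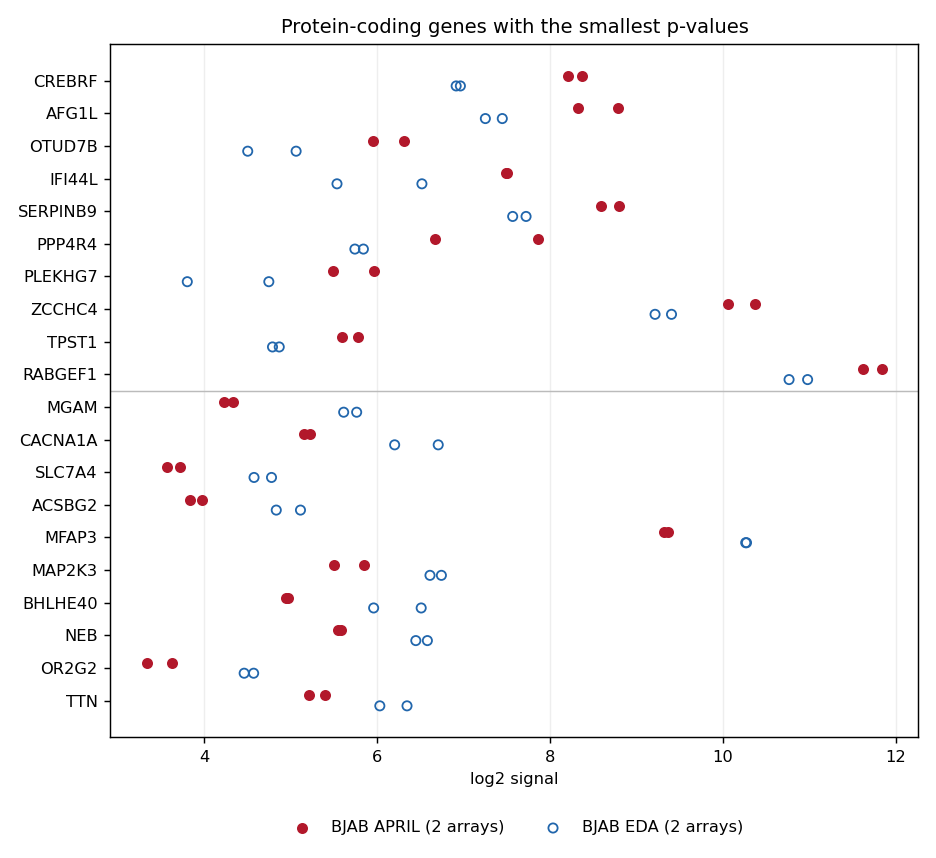
Log2 signal (horizontal axis) on each BJAB array of the 20 protein-coding genes with the smallest p-values among those with groups that do not overlap, 10 with positive values above the line and 10 with negative values below it, filled points for APRIL and open points for EDA. In each row the filled points lie on 1 side of the open points, and 0 of the 20 genes passed adjustment.

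Among other genes, the smallest p-value of the whole comparison belonged to U7, the small nuclear RNA of histone messenger processing. It was at 6.40 and 6.83 with APRIL, against 4.91 and 4.80 with EDA (1.76, interval 1.27 to 2.25, adjusted p = 0.408). The symbol stands for 12 transcript clusters, whose differences ran from -1.10 to 1.76, so the value is that of 1 cluster. AP1S1, a subunit of an adaptor complex of the trans-Golgi, gave the lowest value at -1.88, being at 5.08 and 4.13 with APRIL, against 6.12 and 6.86 with EDA. The other cluster of AP1S1, the one that matched the reference gene, gave 0.59, so the direction of this gene is not settled. IGKV1-37, a kappa light chain segment, gave the highest value at 1.87, being at 8.22 and 7.59 with APRIL, against 5.62 and 6.46 with EDA. Its near-identical copy IGKV1D-37 gave 1.38, and signal from either copy cannot be assigned to one of them. Among genes with a mean of at least 6 the largest values further included TMEM260 (1.39, interval -0.09 to 2.88) and RALGPS1, an exchange factor for Ral (-1.37, interval -2.19 to -0.54). TMEM260 was at 8.24 and 8.05 with APRIL, against 7.89 and 5.61 with EDA, so 1 EDA array set its size. RALGPS1 was at 7.50 and 6.15 with APRIL, against 8.29 and 8.10 with EDA, so its APRIL replicates lay apart.

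Several microRNA genes stood among the largest differences. A microRNA is cut from a hairpin transcript and binds messenger RNAs mainly through its seed, bases 2 to 8. The 8 microRNA genes with the smallest p-values and groups that do not overlap were chosen after their values were seen. A sequence is printed here for the 6 below. Their mature sequences are from RefSeq (GRCh38.p14), 5′ to 3′, with the seed in capitals.
hsa-miR-92b-5p: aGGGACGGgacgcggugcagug
hsa-miR-92b-3p: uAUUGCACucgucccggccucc
hsa-miR-548ae-3p: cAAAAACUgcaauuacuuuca
hsa-miR-548u: cAAAGACUgcaauuacuuuugcg
hsa-miR-3156-5p: aAAGAUCUggaagugggagaca
hsa-miR-5094: aAUCAGUGaaugccuugaaccu
hsa-miR-4521: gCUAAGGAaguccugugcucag
No seed is shared among them. The transcript clusters report the locus and not the mature arms. MIR92B was at 6.47 and 6.74 with APRIL, against 5.21 and 5.48 with EDA (1.26, interval 0.71 to 1.81, adjusted p = 0.901). MIR548AE1 was at 7.12 and 7.61 with APRIL, against 6.07 and 6.30 with EDA (1.19, interval 0.66 to 1.71). MIR548U, of the same large primate family, was at 7.29 and 7.55 with APRIL, against 8.59 and 8.95 with EDA (-1.35, interval -1.95 to -0.76), so these relatives had opposite signs. MIR3156-3, MIR5094 and MIR4521 gave -1.09, -1.15 and -1.09, each without overlap between groups. MIR4659A and MIR597, of the 8 but without a printed sequence, gave 1.68 (interval 0.89 to 2.48) and -1.11 (interval -1.66 to -0.57). The value of MIR4659A was the largest in size among the 8. Over all 1497 microRNA genes 45.4% were positive, the median was -0.04, and 21 (1.4%) reached 2-fold, against 0.446% of all genes.

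The last comparison asks whether BJAB and HBL-1 answered APRIL differently. The difference of responses, BJAB minus HBL-1, was called by limma in 0 genes (0% of those tested), with a smallest adjusted p of 0.843, and 1894 genes had an unadjusted p under 0.05. The median half-width of its 95% interval was 0.78, wider than the 0.55 within BJAB. HBL-1 APRIL replicate 2 had the highest median of gene levels and of background probe sets, at 5.74 and 3.77, against ranges of 5.58 to 5.66 and 3.57 to 3.65 on the other 7 arrays. The median difference of all genes in HBL-1 was 0.10 with that array and 0.02 without it. Without it, 0 genes were called for the difference of responses, the smallest adjusted p was 0.443, and 1860 had an unadjusted p under 0.05. Its part in the values below was not tested beyond these repeats.

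SEC16B, a scaffold of endoplasmic reticulum exit sites, was the 1 gene that limma called within HBL-1, and without HBL-1 APRIL replicate 2 the call was lost (0 called). In BJAB it was at 4.66 and 4.57 with APRIL, against 4.43 and 4.38 with EDA, a difference of 0.21, while HBL-1 gave 2.02, and 1.91 without that array and so with 1 array fewer in its group. The difference of responses was -1.81 (interval -2.44 to -1.18, adjusted p = 0.843) and -1.70 without HBL-1 APRIL replicate 2. RELB and NFKB2, members of the alternative NF-kB pathway, gave -0.03 and -0.06 in BJAB and 0.97 and 0.68 in HBL-1. The interval of the difference of responses ran from -1.66 to -0.33 for RELB and from -1.39 to -0.09 for NFKB2, and without that array the differences were -0.89 and -0.70. RAPGEF5, an exchange factor for RAP proteins, was at 13.19 and 13.05 with APRIL in BJAB, against 12.90 and 12.87 with EDA. In HBL-1 it was dim, at 5.34 and 5.67 with APRIL, against 4.19 and 3.74 with EDA. Its difference of 0.24 in BJAB stood beside 1.53 in HBL-1 (difference of responses -1.30, and -1.13 without that array). MGAM and CREBRF, the leading BJAB genes, gave 0.58 and -0.02 in HBL-1. Their differences of responses were -1.98 (interval -2.64 to -1.32) and 1.37 (interval 0.71 to 2.03), and without that array -1.89 and 1.48. BIRC2 gave 0.64 in BJAB and -0.47 in HBL-1, with a difference of responses of 1.11 (interval 0.47 to 1.75), and 1.01 without that array. Under EDA its level in BJAB minus that in HBL-1 was -7.21, so a dim BJAB signal stood beside a bright HBL-1 signal. For TNFRSF17 the difference of responses was -0.20 (interval -1.21 to 0.82), and 0.11 without that array. MGAM, CREBRF and BIRC2 were named for their p-values in BJAB, so their intervals reuse the values that picked them. SEC16B is set out for its call in HBL-1, which its interval reuses in the same way. RELB, NFKB2 and RAPGEF5 were fixed genes of a design made with earlier results of these data known, so their values may be selected too. None of these differences of responses passed adjustment, so the lines are not shown to differ at any of them.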

How the data were processed

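Total RNA of each culture was biotin-labelled and hybridised to single-colour Affymetrix arrays. The deposited values are log2 signals made by the authors. The submitters' processing notes name RMA and Affymetrix Expression Console, without versions. RMA corrects background, normalizes arrays to 1 distribution and summarises probes, so a shift shared by all genes of an array is removed. The genome build and annotation release behind the values are not given in the sources used here.

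Rows with exactly 1 symbol in the platform annotation were kept (1119 had several and 101450 none), with 1 row per gene. Through gene numbers, 24324 of 33616 genes were matched to the RefSeq gene list (GRCh38.p14) for names and type, 17338 of them protein-coding, and 9292 kept the array's symbol. Levels of different transcript clusters served to pick 1 row per gene, to group genes by level and to call signals low. They were not tested against each other. The 4 group means were fitted over all 8 arrays in limma (4 residual and 6.02 prior degrees of freedom), with two-sided p-values adjusted by Benjamini-Hochberg over all 33616 genes. R 4.3.3 and limma 3.58.1 were used.

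The members, the 35 gene lists (811 entries for 719 genes, 668 measured, 2 under an older symbol) and the tests were chosen with earlier results of these data known. Genes were named by rule. The rules took any that passed and the 10 smallest p-values in each direction among protein-coding genes with groups that do not overlap. They also took 3 in each direction among other genes with settled symbols. Next came the 5 largest differences in each direction at a mean of at least 6. Added to these were 14 fixed genes, among them SEC16B and RAPGEF5. The last rule took 3 members of each list described, with all ligands, receptors and NF-kB subunits. Not every gene that a rule picked is printed. Other genes named were chosen after their values were seen. Y-linked genes were not named.

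Alternatives were a filter on dim genes, every cluster or the average of a gene's clusters, equal medians, quantile or cyclic loess normalization, an intensity trend, array weights, BJAB arrays alone, protein-coding genes alone, a block on replicate number, and each BJAB array left out. All rows of the value table and the fit without HBL-1 APRIL replicate 2, were added after seeing the data.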

Additional observations from a re-analysis of the deposited data

How the results depend on the processing

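The count of genes called between APRIL and EDA in BJAB was 0 under all 19 alternatives, and the count called for the difference of responses was 0 under the 17 that kept HBL-1. The number of genes at 2-fold or more, 150 as reported, was 80 with genes above the median mean alone, 64 with genes of a BJAB mean of at least 6, 50 with protein-coding genes alone and 1235 over all rows of the value table, where the number of features tested differs. Leaving out 1 BJAB array gave 354 to 411, since 1 group then rests on a single array that is assumed to vary like the others. Same-numbered BJAB arrays deviated together only weakly (correlation 0.059). Whether they shared a culture day or a batch is not stated and was not tested. A replicate block gave 0 calls and 150 genes at 2-fold or more. Of 2749 values for 150 named genes under these alternatives, 2728 kept their sign and 0 passed the threshold. Filters, the fit of BJAB arrays alone and the replicate block leave a gene's difference unchanged, so part of this sign count was fixed in advance. Many of these genes were also named for their p-value or size in these same arrays. U7 turned to -0.03 when its clusters were averaged. Of 663 list medians 594 kept their sign, and the interferon-response median ran from 0.11 to 0.37. The fit of BJAB arrays alone and the block leave list medians unchanged too. In all, 5 list medians moved by more than the replicate spread. With 2 arrays a group, differences under the median half-width of 0.55 lie within the error of a typical gene.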

Other observations

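Multicopy small RNA genes were grouped after their values were seen, and the groups gave the following values. Of 1230 copies of U6, the small nuclear RNA of the spliceosome, 61.8% were positive in BJAB, with a median of 0.10, against 50.3% and 0.00 over all genes. Among them 17 were at least 2-fold higher and 4 at least 2-fold lower with APRIL than with EDA. RNU6-974P was at 6.25 and 6.06 with APRIL, against 4.72 and 4.94 with EDA, and RNU6-102P was at 5.27 and 5.70 with APRIL, against 4.26 and 4.10 with EDA. Of 667 copies of 7SL, the RNA of the signal recognition particle, 36.9% were positive, with a median of -0.09. RN7SL833P was at 5.74 and 4.82 with APRIL, against 6.46 and 7.52 with EDA, while RN7SL329P was at 8.34 and 8.34 with APRIL, against 7.49 and 6.40 with EDA. In HBL-1, 36.6% of the 7SL copies were positive, with a median of -0.11, and 56.3% of the U6 copies, with a median of 0.06. Over all genes HBL-1 had 63.7% positive and a median of 0.10. The copies are near-identical in sequence, so their clusters are not independent measures, and 0 members passed the test in BJAB.

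Of 79 core and linker histone genes, 32.9% were positive in BJAB, with a median of -0.08. The share of positive values followed the level in BJAB, with 45.8% of 18811 genes under a mean of 6, 52.2% of 7373 genes from 6 to under 9, and 59.8% of 7432 genes at 9 or more. The 102546 rows without exactly 1 symbol held 1061 (1.03%) at 2-fold or more and 4704 (4.59%) with an unadjusted p under 0.05, and 0 passed limma's adjusted test over all 138722 rows.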
